A study of Solanum lycopersicum with 27 samples.

Results

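The genes of the 4 enzymes that turn phytoene into lycopene were followed through ripening and ripening mutants of tomato (Solanum lycopersicum). They were PDS (Solyc03g123760), ZISO (Solyc12g098710), ZDS (Solyc01g097810) and CRTISO (Solyc10g081650), chosen by identifier for their place in the pathway. All 4 were present among the 34075 genes of the table and among the 18906 genes with enough signal to be tested. The RefSeq gene table (assembly SLM_r2.1) lists genes named PDS, Z-ISO, ZDS and CRTISO on chromosomes 3, 12, 1 and 10, the chromosome numbers that the identifiers also carry. It does not list the identifiers themselves, so the names are those given with the identifiers and not a match to the reference.

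Carotenoids are made in plastids, where phytoene synthase joins geranylgeranyl diphosphate into colourless phytoene. Phytoene desaturase (PDS) and zeta-carotene desaturase (ZDS) add double bonds in turn. Zeta-carotene isomerase (ZISO) acts between them, and carotenoid isomerase (CRTISO) turns the poly-cis product into all-trans-lycopene, the red pigment of tomato fruit. CRTISO is the gene affected in the tangerine mutants, whose orange fruit store the cis form in place of lycopene. In leaves and green fruit the same steps feed the carotenoids of photosynthesis, so the pathway is not used by ripening alone.

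RNA sequencing was done on total RNA of untreated fruit of the cultivar Ailsa Craig, in 27 libraries of 9 groups with 3 replicates each. Wild type (WT), dml2-3 and rin/tdr4-1 were sampled at 25 days post anthesis (dpa) and at 34 dpa, and rin-1, tdr4-1 and nor-1 at 34 dpa. The labels call 34 dpa the breaker stage, when colour first shows, and use that term for the mutants too. DML2 is a DNA demethylase, an enzyme that lowers the methylation of DNA. RIN and TDR4 (also FUL1) belong to the MADS-box family of transcription factors, NOR to the NAC family. The rin allele in rin/tdr4-1 is not specified by its label, and neither the lesions of the alleles, the number of fruits per library nor the origin of replicates from separate plants is given in the sources used here. P-values thus measure only the spread between libraries, which may be technical.

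Levels are in FPKM, fragments corrected for gene length and for the total mapped, so levels of different genes can be compared per length. Differences are between group means of log2(FPKM + 1), from 1 limma model over all 27 libraries, and a gene is called where the p-value adjusted over all tested genes is under 0.05. Columns summed to between 863193 and 1122755 FPKM, and read depth is unknown. Scaling matters here, since the median tested gene differed by -0.51 on the log2 scale between WT at 34 and 25 dpa. It differed from WT at 34 dpa by 0.42 in dml2-3, 0.51 in rin/tdr4-1, 0.23 in rin-1, -0.06 in tdr4-1 and 0.04 in nor-1. Values after division by median-of-ratios size factors, which bring these medians to between -0.04 and 0.04, are given at least where they change a call or a sign or move a member's difference by over 1.5 times. Shares of tested genes called in each comparison are those of the deposited values, and so include the shifts of the median. Replicate 3 of dml2-3 at 25 dpa stood apart, with a correlation across genes of 0.916 or 0.917 with its group, against at least 0.981 within the other 8 groups. It also entered the spread shared by all comparisons. Without it the SE of ZISO in rin/tdr4-1 against rin-1 was 0.09, against 0.31 with it.

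In green WT fruit at 25 dpa all 4 transcripts were present at moderate levels. PDS stood at 49.96, 38.59 and 39.15 FPKM in replicates 1 to 3, and ZDS at 43.80, 36.57 and 35.14 FPKM. CRTISO stood at 32.29, 30.16 and 32.52 FPKM. ZISO was the lowest of the 4 in every one of these libraries, at 14.46, 16.26 and 20.03 FPKM.

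At the breaker stage all 4 genes were higher in WT, and the order of the genes had changed. ZISO reached 573.94, 660.07 and 595.46 FPKM and was the highest of the 4 in each library. PDS reached 116.22, 138.20 and 111.27 FPKM, ZDS 99.75, 120.07 and 102.41 FPKM, and CRTISO 103.26, 119.66 and 107.91 FPKM. For each gene the lowest library at 34 dpa lay above the highest at 25 dpa. Among all genes of a library, ZISO moved from between places 7776 and 9855 by level to between places 147 and 177.

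**Figure D1:**
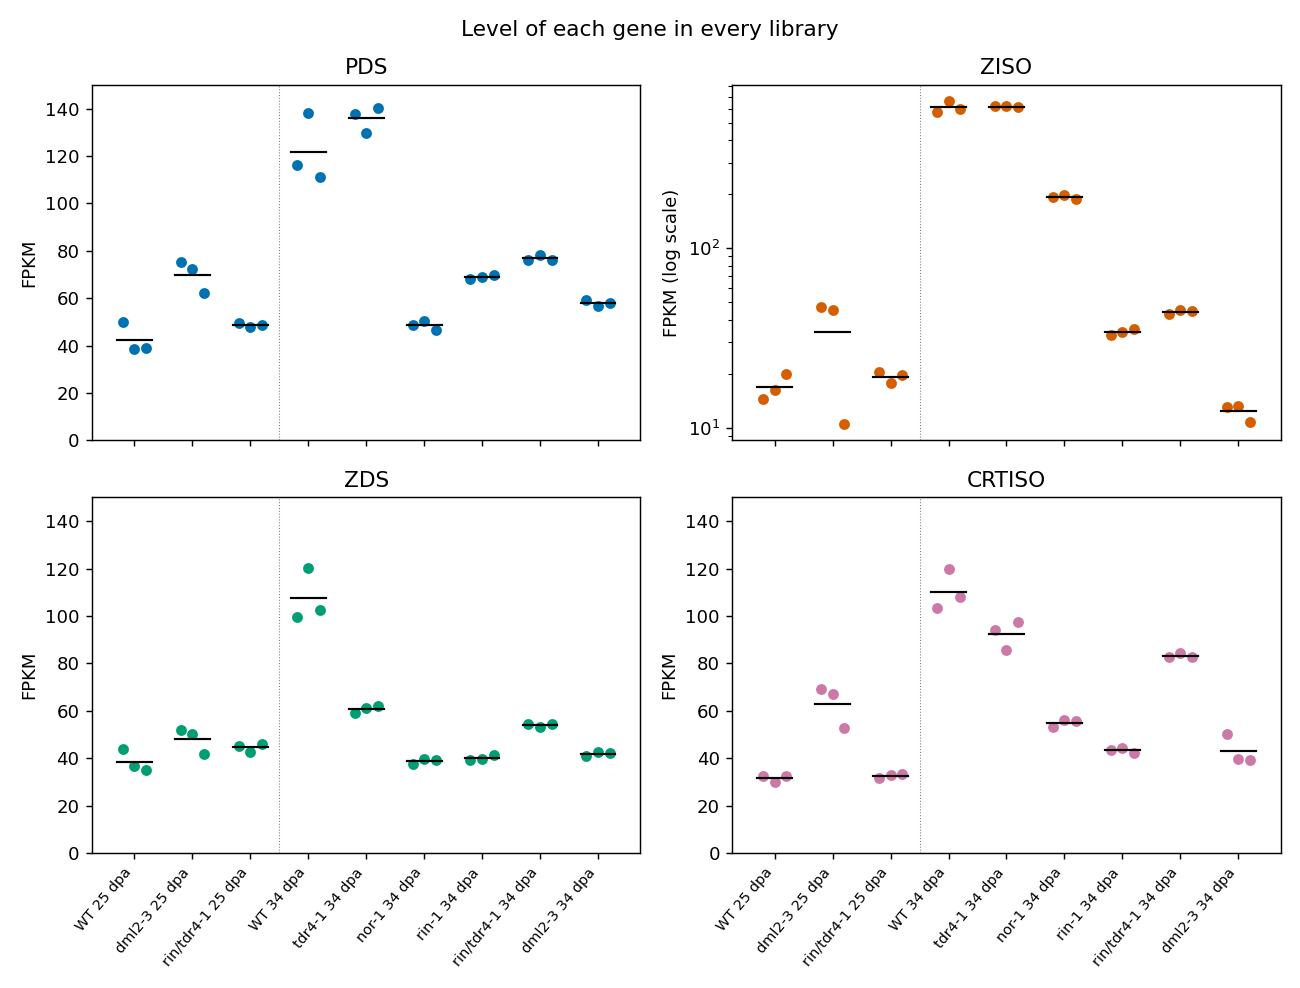
FPKM of PDS, ZISO, ZDS and CRTISO in all 27 libraries (points, replicates 1 to 3 from left to right in each group) with group means (lines); the ZISO axis is logarithmic and the others start at 0. ZISO runs from 10.46 to 660.07 FPKM, and the other 3 genes stay between 30.16 and 140.13 FPKM.

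Between the WT stages 4 of 4 genes were called higher, against 15.3% of all tested genes called higher. On the deposited values 11656 of the 18906 tested genes were called lower, and the median was -0.51. On the log2 scale, ZISO rose by 5.10 (SE 0.31, limma adjusted p = 2.39e-12), 34.3-fold on that scale, and ranked 63 from the highest among the tested genes. PDS rose by 1.50 (SE 0.08, adjusted p = 5.2e-13), ZDS by 1.46 (SE 0.08, adjusted p = 2.77e-13) and CRTISO by 1.77 (SE 0.09, adjusted p = 9.57e-14), which are rises of 2.75-fold to 3.4-fold. With size factors the rises were 5.67 for ZISO, 2.07 for PDS, 2.03 for ZDS and 2.34 for CRTISO. In bulk fruit RNA, a different number of cells of a type and a different amount of RNA per cell cannot be told apart.

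The share of each gene in the summed FPKM of the 4 does not depend on the scaling between libraries. ZISO made up 13.2% ± 2.76 (SD, n = 3) of that sum in WT at 25 dpa and 64.3% ± 0.671 at 34 dpa. The sum itself went from 129.6 ± 9.77 to 949 ± 77.6 FPKM. Within a library the ratio of ZISO to PDS went from between 0.289 and 0.512 to between 4.78 and 5.35. The ratio of PDS to ZDS, the desaturases, was between 1.06 and 1.14 at 25 dpa and between 1.09 and 1.17 at 34 dpa, and these ranges overlap.

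**Figure D2:**
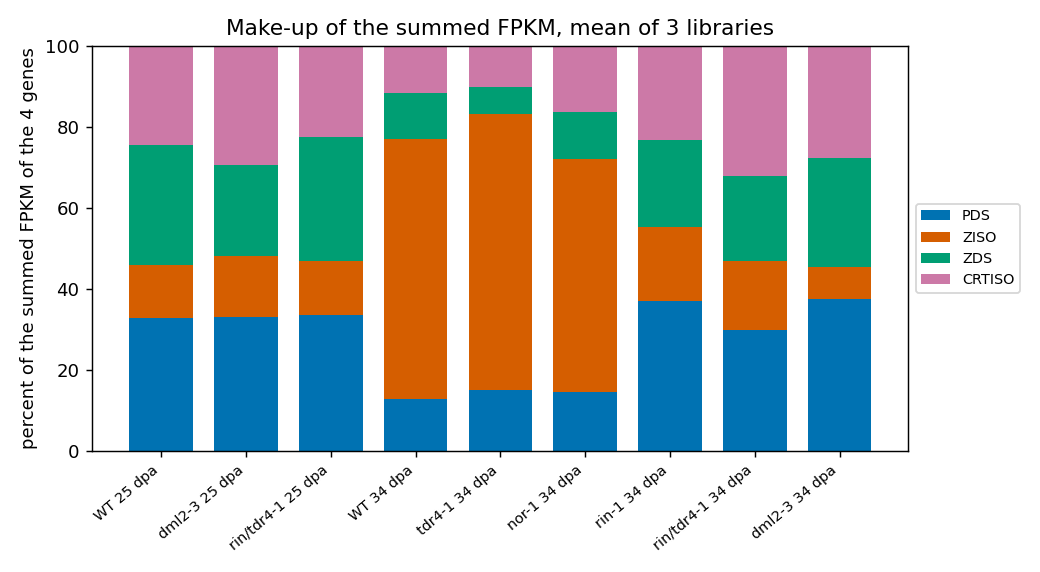
Share of PDS, ZISO, ZDS and CRTISO in the summed FPKM of the 4 genes, as the mean of 3 libraries for each group, in percent. ZISO holds 64.3% in WT, 68.1% in tdr4-1 and 57.5% in nor-1 at 34 dpa and at most 18.3% in the other 6 groups.

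In fruit of dml2-3 at 34 dpa all 4 genes were lower than in WT of that age. ZISO stood at 13.03, 13.27 and 10.81 FPKM, on the deposited scale below every WT library even at 25 dpa. By place among all genes of a library it overlapped WT at 25 dpa, at 9613 to 10594 against 7776 to 9855. The difference of ZISO between these 2 groups was not tested. PDS stood at 59.47, 56.56 and 57.82 FPKM, ZDS at 40.87, 42.47 and 42.29 FPKM, and CRTISO at 50.06, 39.67 and 39.14 FPKM. No dml2-3 library overlapped the WT libraries at 34 dpa for any of them.

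All 4 were called lower, against 18.0% of tested genes. ZISO was lower by 5.52 on the log2 scale (log2 difference -5.52, SE 0.31, limma adjusted p = 6.09e-13), a level 45.8-fold under WT on that scale, and ranked 55 from the lowest among the tested genes. The other log2 differences were -1.05 for PDS (adjusted p = 2.06e-10), -1.33 for ZDS (adjusted p = 1.27e-12) and -1.35 for CRTISO (adjusted p = 9.83e-12), with SE of 0.08 to 0.09. With size factors they were -6.01 for ZISO, -1.56 for PDS, -1.84 for ZDS and -1.85 for CRTISO.

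At 25 dpa most of these genes were higher in dml2-3 than in WT. PDS, at 75.37, 72.21 and 62.38 FPKM, and CRTISO, at 69.21, 66.89 and 52.55 FPKM, were above all WT libraries of that age. ZDS, at 52.02, 50.12 and 41.78 FPKM, overlapped WT through replicate 3. ZISO was at 47.10 and 45.40 FPKM in replicates 1 and 2 but at 10.46 FPKM in replicate 3, under all WT libraries. For each of the 4 genes replicate 3 was the lowest of its group.

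Of the 4 genes, 3 were called higher in dml2-3 at 25 dpa, against 26.7% of tested genes. CRTISO was higher by 0.96 (SE 0.09, limma adjusted p = 1.18e-08), PDS by 0.71 (SE 0.08, adjusted p = 3.82e-07) and ZDS by 0.31 (SE 0.08, adjusted p = 0.00222). The ZDS call ended when limma was fitted to the mutant and WT at 25 dpa only (adjusted p = 0.119). ZISO differed by 0.73 (SE 0.31, adjusted p = 0.0536) with all libraries. Leaving out replicate 3, the ZISO difference was 1.41 (SE 0.10, adjusted p = 3.68e-11). Without replicate 1 or 2 of the mutant the ZISO difference was 0.38 or 0.40 and was not called. It was also called with size factors (0.72, adjusted p = 0.0452).

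From 25 to 34 dpa no member was called higher in dml2-3. In log2 units, CRTISO fell by 0.54 (SE 0.09, limma adjusted p = 8.72e-05) and PDS fell by 0.26 (SE 0.08, adjusted p = 0.019). ZISO fell by 1.15 (SE 0.31, adjusted p = 0.00714), and ZDS differed by -0.19 (SE 0.08, adjusted p = 0.0746), or by -0.11 after size factors (adjusted p = 0.143). So 3 of 4 were called lower, against 21.8% of tested genes. With limma fitted to the dml2-3 groups only, 0 were called, with adjusted p of 0.0673 for CRTISO, 0.101 for PDS and 0.246 for ZISO. Without replicate 3 at 25 dpa all 4 were called and ZISO fell by 1.83, and without replicate 1 or 2 at 25 dpa only CRTISO was called. The PDS call also ended without replicate 2 or 3 at 34 dpa (adjusted p = 0.0618 and 0.0507) and with libraries rescaled to equal totals (-0.08, adjusted p = 0.533).

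The stage change of dml2-3 was below that of WT for all 4 genes, against 17.0% of tested genes with a lower stage change called. The difference of the stage changes was -6.25 for ZISO (SE 0.44, limma adjusted p = 5.02e-11) and -2.30 for CRTISO (SE 0.13, adjusted p = 8.14e-13). For PDS it was -1.76 (SE 0.12, adjusted p = 2.27e-11) and for ZDS -1.64 (SE 0.11, adjusted p = 2.5e-11). Leaving out the dml2-3 replicate 3 of 25 dpa, these values were -6.93, -2.43, -1.84 and -1.74. After size factors, with all libraries, they were -6.74, -2.80, -2.27 and -2.15.

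In the MADS-box double mutant at 34 dpa, the genes kept to unequal parts of their WT level. CRTISO was at 82.70, 84.32 and 82.56 FPKM and was the highest of the 4 in every library, an order seen in no other group. PDS was at 76.26, 78.22 and 76.30 FPKM and ZDS at 54.44, 53.19 and 54.53 FPKM. ZISO was the lowest, at 43.12, 45.19 and 44.65 FPKM. None of these values overlapped WT at 34 dpa.

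All 4 were called lower in rin/tdr4-1 than in WT at 34 dpa, against 15.2% of tested genes. The log2 difference was -3.75 for ZISO (SE 0.31, limma adjusted p = 4.76e-10) and -0.97 for ZDS (SE 0.08, adjusted p = 2.98e-10). It was -0.65 for PDS (SE 0.08, adjusted p = 4.17e-07) and -0.40 for CRTISO (SE 0.09, adjusted p = 0.000386). With size factors these were -4.34 for ZISO, -1.56 for ZDS, -1.24 for PDS and -0.99 for CRTISO.

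At 25 dpa the double mutant stood close to WT. ZISO, at 20.40, 17.74 and 19.67 FPKM, CRTISO, at 31.52, 33.04 and 33.33 FPKM, and PDS, at 49.40, 47.68 and 48.91 FPKM, each overlapped WT. ZDS, at 45.33, 42.56 and 45.97 FPKM, also overlapped and was the only 1 of 4 genes called, by 0.21 (SE 0.08, limma adjusted p = 0.042), against 17.4% of tested genes called higher. ZDS was not called with limma fitted to both 25 dpa groups only (adjusted p = 0.0995), nor without replicate 1 or 3 of rin/tdr4-1 (adjusted p = 0.107 and 0.125) or replicate 2 or 3 of WT (adjusted p = 0.141 and 0.2). PDS differed by 0.20 (95% interval 0.02 to 0.37, adjusted p = 0.0755) and was called with size factors (0.20, adjusted p = 0.016). Leaving out WT replicate 1 also gave a PDS call (0.32, adjusted p = 0.00287). The intervals were -0.46 to 0.84 for ZISO and -0.14 to 0.23 for CRTISO. The ZISO interval takes in the shared spread, with dml2-3 replicate 3 at 25 dpa, which is in neither group.

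With age all 4 genes rose in rin/tdr4-1, against 28.6% of tested genes called higher. CRTISO rose by 1.32 (SE 0.09, limma adjusted p = 9.49e-11) and ZISO by 1.16 (SE 0.31, adjusted p = 0.00317). PDS rose by 0.65 (SE 0.08, adjusted p = 1.22e-06) and ZDS by 0.27 (SE 0.08, adjusted p = 0.00558). The median tested gene changed by -0.01 between these groups. Set against the WT stage change, the stage change was lower for all 4 genes, where 14.5% of tested genes were called lower. The difference of the stage changes was -3.94 for ZISO (SE 0.44, adjusted p = 8.06e-08), -1.19 for ZDS (SE 0.11, adjusted p = 5.46e-09), -0.85 for PDS (SE 0.12, adjusted p = 1.84e-06) and -0.44 for CRTISO (SE 0.13, adjusted p = 0.00387). After size factors all 4 differences were larger, at -4.52 for ZISO, -1.77 for ZDS, -1.43 for PDS and -1.03 for CRTISO.

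In rin-1 at 34 dpa all 4 genes were again below WT without overlap. ZISO was at 32.78, 34.00 and 35.61 FPKM, PDS at 68.30, 68.97 and 69.77 FPKM, ZDS at 39.39, 39.87 and 41.46 FPKM, and CRTISO at 43.49, 44.50 and 42.09 FPKM. Against WT all 4 were called lower, where 20.9% of tested genes were. The log2 differences were -4.12 for ZISO (SE 0.31, limma adjusted p = 1.31e-10), -1.39 for ZDS (SE 0.08, adjusted p = 9.31e-13), -1.32 for CRTISO (SE 0.09, adjusted p = 1.9e-11) and -0.81 for PDS (SE 0.08, adjusted p = 2.3e-08). Size factors gave -4.41 for ZISO, -1.68 for ZDS, -1.61 for CRTISO and -1.09 for PDS.

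**Figure D3:**
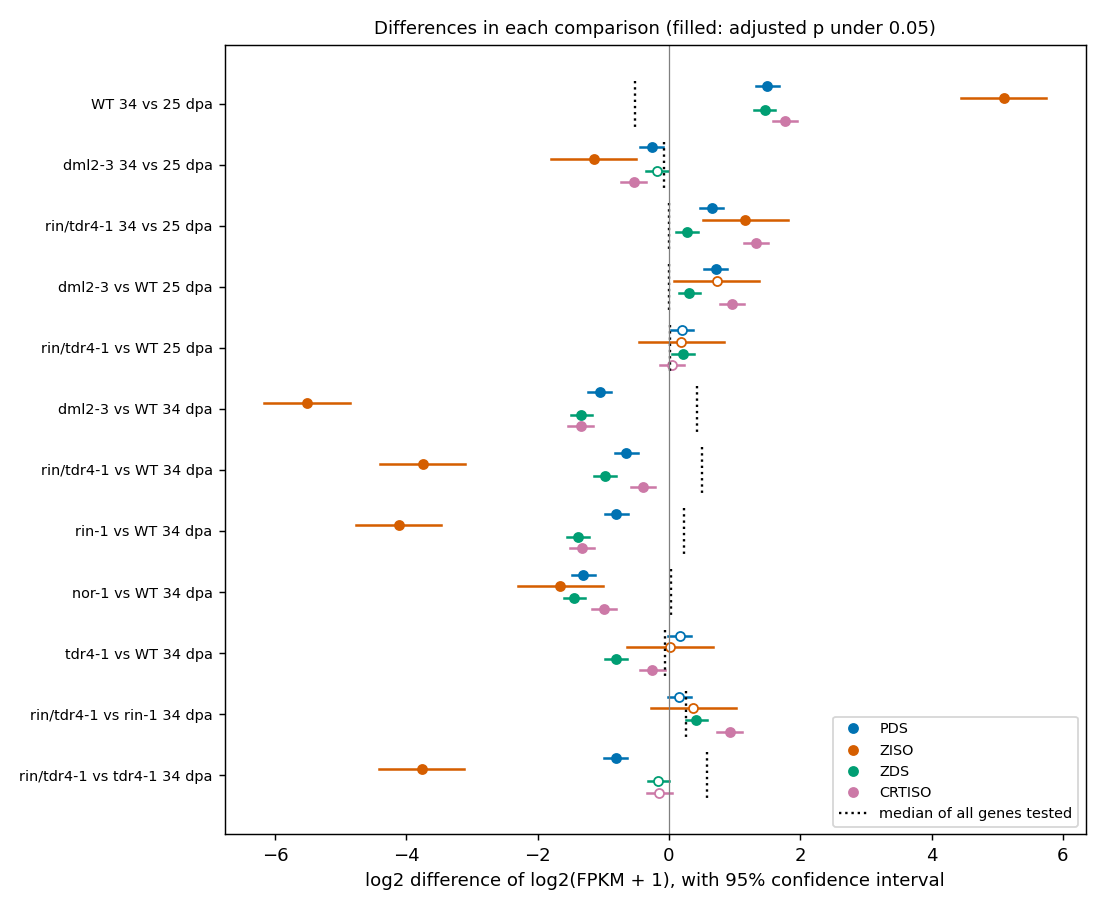
Log2 differences of PDS, ZISO, ZDS and CRTISO in 12 comparisons, with 95% confidence intervals (lines), filled where adjusted p is under 0.05, and the median of all tested genes (dotted). ZISO differs from WT at 34 dpa by -5.52 in dml2-3, -4.12 in rin-1, -3.75 in rin/tdr4-1, -1.66 in nor-1 and 0.02 in tdr4-1.

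In tdr4-1 at 34 dpa ZISO and PDS stood near their WT level and ZDS was lower. ZISO was at 618.11, 618.29 and 610.15 FPKM and PDS at 137.83, 129.87 and 140.13 FPKM, both overlapping WT. ZDS was at 58.89, 61.06 and 61.91 FPKM, below all WT libraries at 34 dpa and above all at 25 dpa. CRTISO was at 93.93, 85.65 and 97.36 FPKM, below WT without overlap.

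Of the 4 genes, 2 were called lower in tdr4-1, against 22.7% of tested genes. ZDS was lower by 0.81 (log2 difference -0.81, SE 0.08, limma adjusted p = 5.88e-08), a level 1.75-fold under WT, and ranked 431 from the lowest among the tested genes. The ZDS call held in every alternative, with adjusted p of at most 0.000216. For CRTISO the difference was -0.25 (SE 0.09, adjusted p = 0.031), which was not called after size factors (-0.15, adjusted p = 0.107) or after quantile scaling (-0.18, adjusted p = 0.106), nor without replicate 1 or 2 of tdr4-1 or replicate 2 of WT (adjusted p = 0.0553, 0.137 and 0.145). For ZISO the 95% interval ran from -0.63 to 0.67, and the sign of its difference of 0.02 changed when libraries were rescaled to equal totals, while size factors gave 0.12. PDS differed by 0.16 (interval -0.01 to 0.34, adjusted p = 0.144) but was called higher after 3 of the alternatives. These were size factors (0.26, adjusted p = 0.00176), quantile scaling (0.21, adjusted p = 0.0255) and leaving out WT replicate 2 (0.25, adjusted p = 0.0234).

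The desaturases differed from each other in tdr4-1. The ratio of PDS to ZDS within a library was 2.13 to 2.34, against 1.09 to 1.17 in WT at 34 dpa and at most 1.73 in any library of the other groups. ZISO to ZDS was 9.86 to 10.5, against 5.50 to 5.81 in WT. These ranges do not overlap. The ratios were not tested.

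In nor-1 the isomerase ZISO kept far more of its level than in rin-1, while PDS and ZDS, as deposited, were about as low as in WT at 25 dpa. After size factors PDS and ZDS in nor-1 stood higher, at 34.9% and 26.7% of the way from the WT mean at 25 dpa to that at 34 dpa on the log2 scale, against 13.0% and 1.05% as deposited. ZISO was at 192.62, 197.26 and 187.71 FPKM, between the WT stages and apart from both. PDS was at 48.69, 50.43 and 46.56 FPKM and ZDS at 37.52, 39.67 and 39.08 FPKM, both overlapping WT at 25 dpa on the deposited scale. CRTISO was at 53.23, 56.03 and 55.60 FPKM, again between the WT stages.

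All 4 were called lower in nor-1 than in WT at 34 dpa, against 28.1% of tested genes. The log2 differences were -1.66 for ZISO (SE 0.31, limma adjusted p = 9.14e-05), -1.44 for ZDS (SE 0.08, adjusted p = 7.86e-13), -1.30 for PDS (SE 0.08, adjusted p = 1.25e-11) and -0.99 for CRTISO (SE 0.09, adjusted p = 3.46e-09). The ratio of ZISO to PDS within a library was 3.91 to 4.03, below the 4.78 to 5.35 of WT at 34 dpa and above the 0.480 to 0.510 of rin-1.

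Set directly against nor-1, rin-1 had less ZISO and CRTISO and more PDS. Of the 4 genes, 3 were called, where 54.8% of tested genes were called in either direction, so the count is near that background. The sizes were unequal, with -2.46 for ZISO (SE 0.31, limma adjusted p = 1.04e-06), -0.33 for CRTISO (SE 0.09, adjusted p = 0.00328) and 0.50 for PDS (SE 0.08, adjusted p = 3.68e-05). Size factors gave -2.71 for ZISO, -0.58 for CRTISO and 0.26 for PDS, all called. ZISO ranked 118 from the lowest among the tested genes here. ZDS differed by 0.05 (interval -0.11 to 0.22, adjusted p = 0.597), and by -0.19 with size factors (adjusted p = 0.0102), -0.14 with quantile scaling and -0.04 with equal totals.

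**Figure D4:**
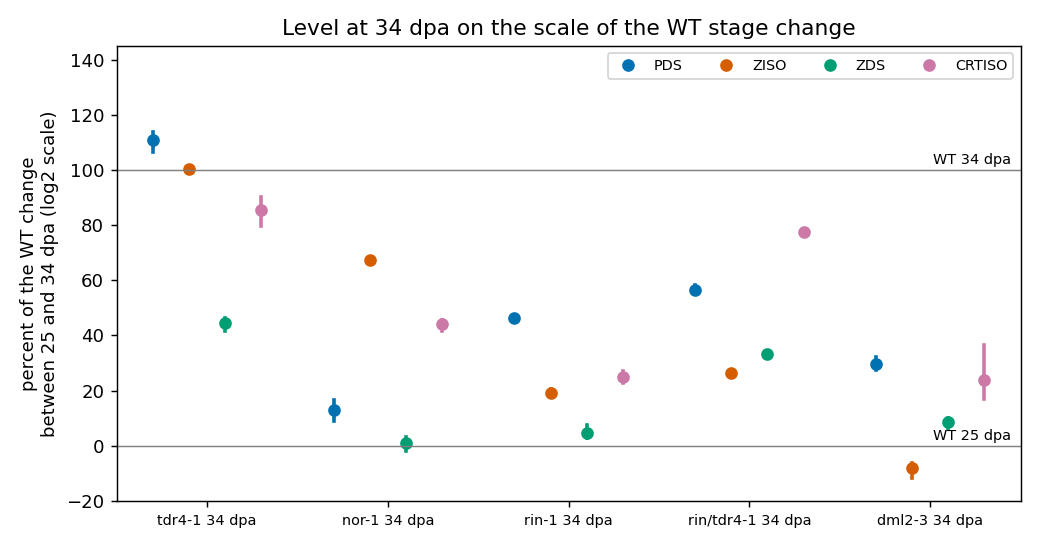
Level at 34 dpa of PDS, ZISO, ZDS and CRTISO in 5 mutants, placed on the log2(FPKM + 1) scale where the WT mean at 25 dpa is 0 and the WT mean at 34 dpa is 100 percent (points, mean of 3 libraries; lines, lowest to highest library). ZISO is at 67.5% in nor-1 and 19.3% in rin-1, and CRTISO at 77.4% in rin/tdr4-1 and 25.0% in rin-1.

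On the scale of the WT stage change, in rin/tdr4-1 CRTISO stood at 77.4% of the WT change, PDS at 56.6%, ZDS at 33.3% and ZISO at 26.5%. In nor-1 ZISO stood at 67.5%, CRTISO at 44.0%, PDS at 13.0% and ZDS at 1.05%. In dml2-3 PDS stood at 29.7%, CRTISO at 23.8%, ZDS at 8.53% and ZISO at -8.15%. In tdr4-1 PDS stood at 111%, ZISO at 100.3%, CRTISO at 85.7% and ZDS at 44.4%. With size factors CRTISO in rin/tdr4-1 was at 57.8%, PDS at 40.3%, ZISO at 23.5% and ZDS at 23.3%, so the last pair was level. In nor-1 the order of the genes was the same with size factors, and ZDS in tdr4-1 was at 64.9%. The WT groups that set this scale are also the controls of the comparisons above.

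The double mutant was also set against each single mutant at 34 dpa. Its rin allele is not specified, so the comparison with rin-1 may not show the loss of TDR4 alone. Against rin-1, 2 of 4 genes were called higher, where 48.9% of tested genes were, so the count itself is that of the background. CRTISO was higher by 0.92 (SE 0.09, limma adjusted p = 8.2e-09), 1.9-fold, and by 0.63 with size factors (adjusted p = 1.45e-07). ZDS was higher by 0.42 (SE 0.08, adjusted p = 7.67e-05) but by 0.12 with size factors (adjusted p = 0.0767). PDS differed by 0.15 (interval -0.02 to 0.33, adjusted p = 0.107), and by -0.14 with size factors (adjusted p = 0.0432), so its direction depended on the scaling. PDS was called higher with equal totals (0.36, adjusted p = 0.000847) and with limma fitted to the compared groups only (0.15, adjusted p = 0.000844). ZISO differed by 0.37 (interval -0.28 to 1.02, adjusted p = 0.301), and by 0.07 with size factors. When dml2-3 replicate 3 at 25 dpa was left out, a library that enters only the shared spread, ZISO was called at the same 0.37 (adjusted p = 0.000576). ZISO was also called with limma fitted to the compared groups only (0.37, adjusted p = 8.91e-05).

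Against tdr4-1, 2 of 4 genes were called lower in the double mutant, where 14.9% of tested genes were. ZISO was lower by 3.77 (log2 difference -3.77, SE 0.31, limma adjusted p = 3.98e-10) and PDS by 0.81 (-0.81, SE 0.08, adjusted p = 1.34e-08). ZDS differed by -0.16 (interval -0.33 to 0.00, adjusted p = 0.0644) and CRTISO by -0.15 (interval -0.33 to 0.04, adjusted p = 0.139). With size factors all 4 were called, at -4.45, -1.50, -0.85 and -0.83 for ZISO, PDS, ZDS and CRTISO. The median tested gene differed by 0.57 between these groups as deposited and by 0.03 with size factors. The 14.9% belongs to the deposited values, so it is no background for the 4 calls with size factors. ZDS and CRTISO were also called with quantile scaling (-0.50 and -0.39) and, on the deposited values, with limma fitted to the compared groups only (adjusted p = 0.0027 and 0.0255).

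If the rin-1 and tdr4-1 differences from WT are added, ZDS and CRTISO in the double mutant lay above that sum. The departure was 1.23 for ZDS (SE 0.11, limma adjusted p = 3.69e-09) and 1.18 for CRTISO (SE 0.13, adjusted p = 4.87e-08), against 47.8% of tested genes called above the sum and a median of 0.36. With size factors, where the median was 0.03, they were 0.83 and 0.78. Both genes were thus less low in the double mutant than the single differences add up to. The rin allele of the double mutant is not specified and may not be that of rin-1. For PDS the departure was -0.01 (interval -0.25 to 0.24, adjusted p = 0.962), against -0.41 after size factors (adjusted p = 0.000328) and 0.22 after equal totals, so its sign depended on the scaling. For ZISO it was 0.35 (interval -0.57 to 1.27, adjusted p = 0.495), with -0.04 under size factors, and it was called at 0.35 when dml2-3 replicate 3 at 25 dpa was left out (adjusted p = 0.0125).

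Between dml2-3 and rin/tdr4-1 at 34 dpa, all 4 genes were lower in dml2-3, against 35.7% of tested genes. ZISO was lower by 1.77 (log2 difference -1.77, SE 0.31, limma adjusted p = 4.97e-05) and CRTISO by 0.95 (-0.95, SE 0.09, adjusted p = 9.36e-09). PDS differed by -0.40 (SE 0.08, adjusted p = 0.000295) and ZDS by -0.36 (SE 0.08, adjusted p = 0.000466).

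On the deposited scale, across the 9 groups, the mean level of ZISO spanned 49.8-fold, from dml2-3 to tdr4-1, both at 34 dpa. The means of CRTISO spanned 3.48-fold, those of PDS 3.19-fold and those of ZDS 2.79-fold. For ZISO, tdr4-1 and WT at 34 dpa overlapped at the top, followed without overlap by nor-1. Then came rin/tdr4-1 at 34 dpa and rin-1, which did not overlap, rin/tdr4-1 and WT at 25 dpa, which did, and dml2-3 at 34 dpa. The range of dml2-3 at 25 dpa, through its replicate 3, overlapped all of these last 5 groups. For PDS, tdr4-1 and WT at 34 dpa overlapped at the top, and rin/tdr4-1 at 25 dpa, nor-1 and WT at 25 dpa overlapped at the bottom. For ZDS and CRTISO, WT, tdr4-1 and rin/tdr4-1 at 34 dpa held the first 3 places in that order without overlap. At the bottom for ZDS, dml2-3 at 34 dpa, rin-1, nor-1 and WT at 25 dpa overlapped in turn. The ZDS range of WT at 25 dpa also reached those of rin/tdr4-1 and dml2-3 at 25 dpa. For CRTISO, rin/tdr4-1 and WT at 25 dpa overlapped at the bottom, and rin-1 and dml2-3 at 34 dpa overlapped above them.

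As a description over the 9 group means of log2(FPKM + 1), Pearson's r between the members ran from 0.706 for ZISO and ZDS to 0.881 for PDS and CRTISO. The groups share cultivar, library type and, by stage, fruit age. Among 13496 other genes with a mean of at least 10 FPKM in some group, the one closest to PDS was Solyc01g006540.4 (r = 0.988 over 9 groups). It stood at 1.10 ± 0.125 FPKM in WT at 25 dpa, 154 ± 31.9 FPKM in WT at 34 dpa and 1.37 ± 0.0929 FPKM in nor-1 (SD, n = 3). The gene most like ZISO was Solyc10g008470.3 (r = 0.986), at 3.60 ± 0.460, 17.7 ± 1.60 and 9.80 ± 0.608 FPKM in the same groups. The closest genes to ZDS and CRTISO reached r of 0.973 and 0.968. At r of at least 0.95 there were 36 genes for ZISO, 9 for CRTISO, 7 for ZDS and 6 for PDS. The files do not pair these identifiers with names.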

How the data were processed

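The authors deposited 1 table of FPKM values per gene for the 27 libraries, and every column was tied to a sample by its title. The submitters' processing notes name Trimmomatic, STAR 2.5.4b, RSEM and DESeq2, without roles; the sources used here do not give genome build, annotation, strand setting or read depth. Low values shared no common step (at most 6.71% of low genes, within 2%), so reads were not recovered and no count test was run. No libraries were identical (0 pairs).

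The 18906 genes that reached 1 FPKM in 3 or more libraries were tested. Log2(FPKM + 1) was fitted with 1 mean per group in limma 3.58.1 (R 4.3.3, empirical Bayes with trend), for 17 comparisons, with Benjamini-Hochberg adjustment over all kept genes. The added 1 FPKM shrinks differences of low genes. The script was tested on simulated data. Alternatives were a pseudocount of 0.1, no filter, a mean of at least 5 FPKM, size factors, equal totals (TPM), quantile scaling, only the groups compared, the replicate number as a term, no trend and leaving out libraries.

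All 4 members are named in every comparison. For likeness, the gene with the highest r to each member was taken, and at most 2 identifiers are printed. Members and lists were chosen with earlier results of these data known. The RefSeq table holds 0 of the identifiers, so other pathway genes, the mutated genes and fruit markers are not reported, and neither the tissue nor the genotypes were checked by markers.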

Additional observations from a re-analysis of the deposited data

Results flagged for a closer look

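Effects of the same contrast differed between genotypes, by a test of the difference itself (limma, adjusted over all tested genes), in 10 results. The stage change in dml2-3 minus that in WT was -6.25 for ZISO, -2.30 for CRTISO, -1.76 for PDS and -1.64 for ZDS on the log2 scale. For rin/tdr4-1 it was -3.94 for ZISO, -1.19 for ZDS, -0.85 for PDS and -0.44 for CRTISO. Of all tested genes, 17.0% had a lower stage change called in dml2-3 and 14.5% in rin/tdr4-1. The departure of rin/tdr4-1 from the sum of rin-1 and tdr4-1 was 1.23 for ZDS and 1.18 for CRTISO. With size factors these departures were 0.83 and 0.78. On the deposited values the departures of PDS (-0.01, limma adjusted p = 0.962) and ZISO (0.35, adjusted p = 0.495) were tested too and not called. As deposited, 47.8% of tested genes were called above the sum and the median departure was 0.36, so being called is near the background here. Groups of 3 libraries were too small for a test of a single outlying value.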

How the results depend on the processing

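Of 1148 values of the 68 gene results under alternatives, 1085 kept direction and side of the threshold. With the sign kept, 24 lost a call and 25 gained one. The other 14 changed sign, some with a change of call and some without. The number of members called went from 3 to 0 for dml2-3 between stages with only the groups compared (1 to 4 when leaving out a library), from 2 to 4 for rin/tdr4-1 against rin-1 with only the groups compared, and from 2 to 4 for rin/tdr4-1 against tdr4-1 with only the groups compared, quantile scaling or size factors. For rin/tdr4-1 against WT at 25 dpa it went from 1 to 0 with no trend, with only the groups compared and with the replicate block, to 2 with quantile scaling, size factors and TPM, and ran from 0 to 2 when leaving out a library. For tdr4-1 against WT it was 1 to 2 when leaving out a library. These counts are given without the share of all tested genes called under the same alternative. They thus do not show a change particular to the 4 genes. For fits to only the groups compared, the spread comes from those groups alone. The SE of ZISO in rin/tdr4-1 against rin-1 was then 0.04, against 0.31 with all libraries. That of CRTISO between dml2-3 stages was 0.15, against 0.09. The cause of these changes was not tested.

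Signs changed for the PDS departure from the sum (0.22 with TPM, -0.10 to 0.055 when leaving out a library), PDS in rin/tdr4-1 against rin-1 (-0.14, size factors), ZDS between dml2-3 stages (0.00081, TPM), ZDS in rin-1 against nor-1 (-0.14 quantile, -0.19 size factors, -0.036 TPM), the ZISO departure (-0.044, size factors) and ZISO in tdr4-1 against WT (-0.010 with TPM, -0.027 to 0.074 when leaving out a library).

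Same-numbered replicates did not pair: in 0 of 36 pairs of groups were all correlations over 0.1 (-0.173 to 0.139). With the replicate block the ZDS p in rin/tdr4-1 against WT at 25 dpa was 0.0511, and no other member's call changed. Read depth is unknown, so counting error could not be separated from the spread between libraries.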
